A study of Homo sapiens with 11 samples.

Results

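Of the 24227 H3K4me3 regions on chromosomes 1 to 22 in U2OS cells, 5835 (24.1%) were narrower than 4000 bp, shared at least 1 bp with a mapped replication origin of the same cells, and shared no base with a CUL4A region. The whole H3K4me3 list held 25181 regions. The 5835 regions, called narrow CUL4A-free regions at origins here, were chosen by the width of the H3K4me3 region, by its overlap with an origin and by its lack of overlap with CUL4A, so these properties were selected on and are given only as a description. They were set beside 5435 narrow H3K4me3 regions (22.4%) at origins with CUL4A, 8722 narrow regions (36.0%) that met no U2OS origin, and 4235 broad regions (17.5%) of 4000 bp or more.

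H3K4me3 is trimethylation of lysine 4 on histone H3, a mark concentrated at active promoters and often found at early replicating origins. Replication origins are the sites where DNA synthesis starts, and short nascent strands protected by their RNA primers mark these starts. CUL4A forms the backbone of CRL4, a ubiquitin ligase that removes the licensing factor CDT1 around the start of S phase so that an origin fires no more than once in a cell cycle. CDT2 and RepID (also named PHIP or DCAF14) are substrate receptors of CRL4, RepID binds a group of origins, and SKP2 is the F-box receptor of SCF, another ligase that acts on CDT1. H3K9me3 is a mark of heterochromatin and of late replication.

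The study asked how RepID and CUL4 associate with origins. U2OS is a human osteosarcoma cell line. U2OS cells with intact RepID gave the H3K4me3, H3K9me3 and CUL4A ChIP-Seq regions and the nascent strand origins. The methods name no synchronization or drug treatment for these assays. For CDT2 ChIP-Seq the sample label names U2OS, whereas the description of the series names a stable U2OS line with added full-length FLAG-tagged RepID, and this difference could not be settled. HCT116 is a human colon carcinoma line. HCT116 cells, likewise with no synchronization or treatment named for these assays, gave SKP2 ChIP-Seq regions in wild-type (WT) cells and in a RepID knock-out (KO). A RepID KO clone gave a further origin list, whereas HCT116 WT origins were not analysed here. The KO cells differ from U2OS in both cell line and RepID genotype, and these cannot be told apart in a comparison of the origin lists.

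Of the 11 samples, 8 had a list of regions and the other 3 were inputs. Each condition had 1 sample, so the spread between replicates is unknown and no test between conditions was made. The lists held 127325 U2OS origins, 56715 CUL4A regions, 28516 CDT2 regions, 57632 H3K9me3 regions, 85555 HCT116 RepID KO origins, 12221 SKP2 regions in HCT116 WT and 13885 in HCT116 RepID KO cells. Read totals were not in the lists and the depth of the samples is unknown. A region was counted as meeting another list when at least 1 bp was shared. Shares are given with Wilson 95% confidence intervals and differences of shares with Newcombe intervals, which cover counting error only and treat neighbouring regions as independent. Positions are those of the deposited lists, in hg19 according to the submitters' processing notes, and no gene was assigned to a region.

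The narrow CUL4A-free regions at origins had a median width of 1833 bp, with quartiles at 678 and 2948 bp, and together covered 10.9 Mb. Their fold enrichment over control, as given by the authors for each region, had a median of 6.72 with quartiles of 4.34 and 10.7, and ranged from 1.65 to 37.3. At least 10-fold enrichment was reached by 1666 of them (28.6%), against 27.9% of the narrow regions at origins with CUL4A and 32.3% of all autosomal H3K4me3 regions. At least 20-fold was reached by 145 (2.49%), against 6.20% and 3.79%, so the highest folds were less frequent here than with CUL4A. The −log10 q of the authors was at least 2 in 94.2%. Narrow regions at origins with CUL4A had a median width of 1433 bp and a median fold of 5.85, narrow regions outside origins 1050 bp and 5.71, and broad regions 4972 bp and 12.0. Since width and CUL4A were part of the choice, these are descriptions without a test.

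Within the CUL4A-free regions at origins, enrichment rose with width. The 1145 regions of 200 to under 500 bp had a median fold of 3.99, and the 1363 regions of 3000 to under 4000 bp had a median of 10.7. An origin covered the centre of 85.1% of the 5835 regions, and 2745 (47.0%) lay wholly inside origins. The smallest overlap with an origin was 7 bp, and 115 regions shared under 200 bp, the window in which the origins were called.

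The region with the highest enrichment was chr1:244212780-244214861, which is 2082 bp wide and had a fold of 37.3. It shared 800 bp with a U2OS origin of 800 bp, 287 bp with H3K9me3 and 621 bp with a RepID KO origin, and lay 30.3 kb from the nearest CUL4A region. The region at chr7:35073851-35076709 (fold 33.3) shared 1950 bp with U2OS origins, 1509 bp with RepID KO origins, 249 bp with H3K9me3 and 487 bp with SKP2 of HCT116 WT cells, and shared no base with SKP2 of the KO cells. Both were named as the most enriched of the regions meeting H3K9me3 and of those meeting a RepID KO origin, so meeting a further list followed from the choice.

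Among regions that met CDT2, the most enriched were chr17:33286978-33289955 (fold 32.6) and chr3:42844072-42847948 (fold 24.8), with 545 and 529 bp under CDT2. Only the region on chromosome 3 met a RepID KO origin, over 2400 bp. The region at chr6:28553861-28555920 (fold 28.8) was second among those with SKP2, sharing 629 bp with SKP2 of HCT116 WT cells and 1600 bp with RepID KO origins. High enrichment was also found without any further list: chr1:54302355-54304441 (fold 31.6) and chr17:41561061-41563052 (fold 30.0) shared 1446 and 1940 bp with U2OS origins, and no base with CDT2, H3K9me3, SKP2 or RepID KO origins.

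At the width limit, the widest members were chr16:89892138-89896136 (fold 10.7) and chr17:40304906-40308903 (fold 10.1). Just outside it, chr1:7842083-7846082 (fold 8.18) and chr17:19012950-19016949 (fold 6.38) were 4000 bp wide and otherwise met the criteria. The 132 members of 3900 to under 4000 bp had a median fold of 10.8 and met RepID KO origins in 86.4%, and the 96 otherwise matching regions of 4000 to under 4100 bp had 11.4 and 87.5%. At the CUL4A limit, 12 members lay within 200 bp of a CUL4A region, and the nearest, chr1:109817835-109818659, was 34 bp away. On the other side, 71 of the narrow regions at origins with CUL4A shared under 200 bp with it, while CUL4A covered at least 50% of the region in 81.7%.

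Most narrow CUL4A-free regions at origins lay at sites that were also origins in HCT116 RepID KO cells, and few of them met CDT2, H3K9me3 or SKP2. RepID KO origins were met by 4029 regions (69.0%, 67.9 to 70.2%), against 70.0% of all autosomal H3K4me3 regions. CDT2 was met by 210 (3.60%, 3.15 to 4.11%), against 10.4% of all autosomal H3K4me3 regions. H3K9me3 was met by 346 (5.93%, 5.35 to 6.57%), against 13.3%. SKP2 was met by 151 (2.59%, 2.21 to 3.03%) in HCT116 WT and by 130 (2.23%, 1.88 to 2.64%) in HCT116 RepID KO cells, against 4.37% and 3.67%. The share at RepID KO origins was therefore near that of all H3K4me3 regions, while the shares with the other lists were lower.

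Beside narrow regions at origins with CUL4A, the CUL4A-free regions were lower for every list. CDT2 met 25.7% of the regions with CUL4A, a difference of −22.1 percentage points (−23.4 to −20.9). H3K9me3 met 28.4% of them (difference −22.4 points, −23.8 to −21.1), and RepID KO origins met 87.2% (−18.2 points, −19.7 to −16.7). For SKP2 the regions with CUL4A had 7.84% in HCT116 WT (−5.25 points, −6.09 to −4.44) and 7.05% in HCT116 RepID KO cells (−4.82 points, −5.61 to −4.05). None of these intervals included 0, and all kept their sign in each of 3 ranges of width.

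**Figure D1:**
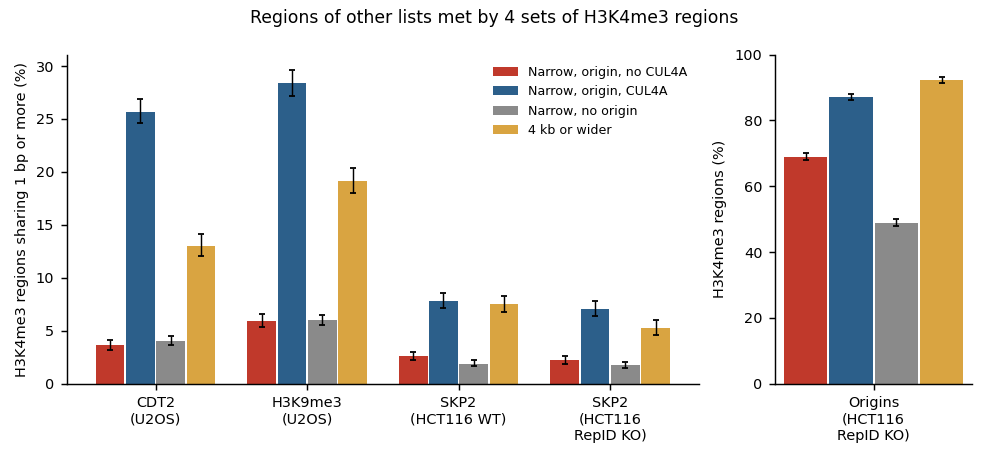
Percentage of H3K4me3 regions sharing at least 1 bp with CDT2, H3K9me3, SKP2 and RepID KO origin regions, for narrow regions at origins without CUL4A (red), narrow regions at origins with CUL4A (blue), narrow regions outside origins (grey) and broad regions (yellow); error bars are Wilson 95% intervals over regions. The red bars stand at 3.60% for CDT2 and 5.93% for H3K9me3, against 25.7% and 28.4% for the blue bars, and the RepID KO origin panel runs from 48.9% for grey to 92.3% for broad regions.

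Whether an origin made a difference was asked with the narrow regions outside U2OS origins. RepID KO origins met 48.9% of these, 20.1 points (18.5 to 21.7) below the regions at origins. For CDT2 (4.01% outside, difference −0.414 points, −1.04 to 0.229) and H3K9me3 (5.98% outside, −0.0551 points, −0.831 to 0.740) the intervals included 0, so no difference was detectable and equality was not shown. These calls depended on the strength of the regions counted, since with only the stronger 50% of each list CDT2 was −1.03 points (−1.48 to −0.557) and H3K9me3 −0.836 points (−1.43 to −0.226). SKP2 differed by 0.708 points (0.221 to 1.22) in HCT116 WT and 0.485 points (0.0276 to 0.969) in HCT116 RepID KO cells, but the direction was not stable. With 50% of the region covered, SKP2 was −0.546 points (−0.820 to −0.264) in WT and −0.111 points (−0.379 to 0.176) in KO, and with 1 kb around the centre both intervals included 0. The SKP2 lists had median widths of 361 bp in WT and 369 bp in KO. The H3K4me3 regions at origins were wider than those outside (medians of 1833 and 1050 bp). A wider region is less easily covered to 50%, and the part of this in the change was not tested.

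The narrow regions outside origins were not all free of CUL4A, since 1234 of them (14.1%) shared a base with it. Without these, 7488 regions were left, of which 1.39% met CDT2, 3.37% H3K9me3, 45.2% RepID KO origins, 0.935% SKP2 of HCT116 WT and 0.881% SKP2 of RepID KO cells. Against this CUL4A-free set, the CUL4A-free regions at origins were higher for CDT2 by 2.21 points (1.68 to 2.77), for H3K9me3 by 2.56 points (1.84 to 3.31), for RepID KO origins by 23.8 points (22.2 to 25.4), and for SKP2 by 1.65 points (1.20 to 2.13) in HCT116 WT and 1.35 points (0.924 to 1.80) in RepID KO cells. The direction for CDT2 and H3K9me3 thus turned with the removal of regions with CUL4A from the comparison, a choice made after the data had been seen. The 1234 regions with CUL4A outside origins met CDT2 in 19.9% (17.8 to 22.3%) and H3K9me3 in 21.9% (19.7 to 24.3%), shares nearer to those of the regions with CUL4A at origins than to those of either CUL4A-free set.

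Width changed these shares within the CUL4A-free regions at origins. RepID KO origins met 46.0% (43.2 to 48.9%) of the 1145 regions of 200 to under 500 bp, 55.9% of the 812 of 500 to under 1000 bp, 73.6% of the 1147 of 1000 to under 2000 bp, 80.0% of the 1368 of 2000 to under 3000 bp and 81.4% (79.2 to 83.3%) of the 1363 of 3000 to under 4000 bp. A wider region can meet more bases of any list, and the part of this in the rise was not tested. CDT2 went the other way. It met 9.34% (7.79 to 11.2%) of the regions under 500 bp and between 1.68 and 2.71% in the wider classes, and the difference between regions under 500 bp and the rest was 7.15 points (5.53 to 9.01). H3K9me3 also fell from 10.3% under 500 bp to 4.43% at 500 to under 1000 bp and stood at 6.02% in the widest class. SKP2 in HCT116 WT cells lay between 1.83 and 2.96% across the classes, with an interval of the difference under 500 bp against the rest that included 0 (−0.938 points, −1.75 to 0.109).

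**Figure D2:**
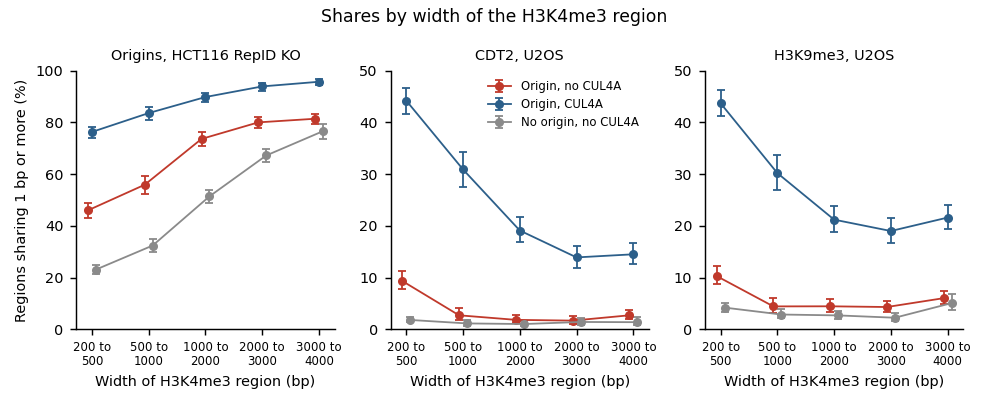
Percentage of narrow H3K4me3 regions sharing at least 1 bp with HCT116 RepID KO origins (left, axis to 100%), CDT2 (middle) and H3K9me3 (right, both to 50%), by width of the region in bp, for regions at origins without CUL4A (red), at origins with CUL4A (blue) and outside origins without CUL4A (grey); bars are Wilson 95% intervals. Red points rise from 46.0 to 81.4% on the left and drop from 9.34 to 2.71% in the middle, where blue points drop from 44.2 to 14.5%.

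At matched width the difference from the CUL4A-free regions outside origins varied with the class. For RepID KO origins it was 22.9, 23.5 and 22.2 points in the 3 classes under 2000 bp, 12.8 points (9.50 to 16.1) at 2000 to under 3000 bp and 4.72 points (1.28 to 8.26) at 3000 to under 4000 bp. For CDT2 it was 7.54 points (5.86 to 9.42) at 200 to under 500 bp, where 1.81% of the regions outside origins met CDT2. It was 1.57 points (0.412 to 2.99) at 500 to under 1000 bp, 0.813 points (−0.0616 to 1.84) at 1000 to under 2000 bp, 0.260 points (−0.705 to 1.23) at 2000 to under 3000 bp and 1.33 points (0.0765 to 2.50) at 3000 to under 4000 bp. The CDT2 difference between the CUL4A-free sets was therefore largest in the shortest of the 5 width classes. Fold enrichment gave no such order at matched width. At 200 to under 500 bp, RepID KO origins met 52.1% of the less enriched regions, split at the median fold, and 40.0% of the more enriched. At 500 to under 1000 bp these shares were 53.2 and 58.6%, and at 3000 to under 4000 bp they were 84.1 and 78.6%.

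The regions lay at a median of 10.5 kb from the nearest CUL4A region, with quartiles of 3.54 and 30 kb, and the most distant, chr13:72440842-72441808, was 1416 kb away. Under 2 kb from CUL4A lay 906 regions (15.5%). RepID KO origins met 80.9% (78.2 to 83.3%) of these, 73.1% at 2 to 10 kb, 64.2% at 10 to 30 kb, 61.3% at 30 to 100 kb and 61.9% (56.9 to 66.6%) at 100 kb or more. The CUL4A-free regions outside origins showed the same order at lower levels, with 61.3, 49.8, 46.5, 40.3 and 35.4% over these distances. For the regions at origins, the difference between those under 2 kb and those at 30 kb or more was 19.5 points (15.8 to 23.0). The nearer regions were the narrower ones, with median widths of 1397 bp under 2 kb and 2324 bp at 30 to 100 kb, whereas the share at RepID KO origins rose with width. Among regions of 2000 to under 4000 bp the difference was 15.7 points (11.4 to 19.6), with 317 of 345 near regions (91.9%) at a RepID KO origin. Median fold enrichment ran against this order, from 5.52 under 2 kb to 8.78 at 30 to 100 kb. For CDT2 the shares of regions under 2 kb and at 30 kb or more were 2.87 and 3.36% (difference −0.491 points, −1.88 to 1.04), so no gradient toward CUL4A was detectable.

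Seen from the origins, 5761 of the 126050 autosomal U2OS origins (4.57%) held a narrow CUL4A-free region, and 246 held 2 or more. Their median width was 3000 bp, against 2400 bp for all origins. CUL4A was present elsewhere in 754 of them (13.1%), against 29.8% of all origins, which is described without a test because the absence of CUL4A on the H3K4me3 region was selected on. The 805 H3K4me3 regions in such origins met RepID KO origins in 78.3%, 10.7 points (7.44 to 13.7) above the other 5030 regions, and had a median fold of 4.86 against 7.17. Origins with CUL4A elsewhere were wider, with a median of 8800 bp against 2600 bp for those without CUL4A. The difference of 10.7 points was not matched for origin width.

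The 5007 origins with a narrow CUL4A-free region and no CUL4A anywhere met a RepID KO origin in 68.9% (67.6 to 70.2%). Of the 81478 origins with neither H3K4me3 nor CUL4A, 24.4% (24.1 to 24.7%) did so, which gives a difference of 44.5 points (43.2 to 45.8). The origins without H3K4me3 were narrower, with a median of 2000 bp against 2600 bp, and the shares were compared within classes of width. They were 62.0 against 17.8% under 2 kb, 68.9 against 26.3% at 2 to 5 kb, 79.3 against 43.9% at 5 to 10 kb and 81.6 against 58.0% at 10 to 20 kb. Above 20 kb there were 8 of 10 and 29 of 56 origins, and the intervals of these shares overlapped (49.0 to 94.3% and 39.0 to 64.3%). Other lists did not separate these origins in the same way. CDT2 met 4.97% (4.40 to 5.61%) of the origins with the H3K4me3 region and 5.22% (5.07 to 5.37%) of those with neither mark, and H3K9me3 met 9.53% (8.74 to 10.4%) and 11.7% (11.5 to 11.9%). SKP2 shares were 3.73 and 3.13% in HCT116 WT, and 3.67 and 4.02% in HCT116 RepID KO cells, each over all widths. Within classes of width, H3K9me3 was 5.57 against 9.48% under 2 kb and 8.84 against 11.9% at 2 to 5 kb. It was 13.3 against 19.6% at 5 to 10 kb and 35.6 against 32.1% at 10 to 20 kb. CDT2 was 3.84 against 5.06%, 4.46 against 4.78%, 6.57 against 7.31% and 12.3 against 14.1% in these classes. Above 20 kb, H3K9me3 and CDT2 each met 6 of 10 origins, against 46.4 and 17.9%. U2OS origins with a narrow H3K4me3 region and no CUL4A were thus more often origins in the RepID KO cells than those with neither mark. Over all widths CDT2 and SKP2 were met at shares within 1 point of each other, and H3K9me3 at a lower share (9.53 against 11.7%).

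**Figure D3:**
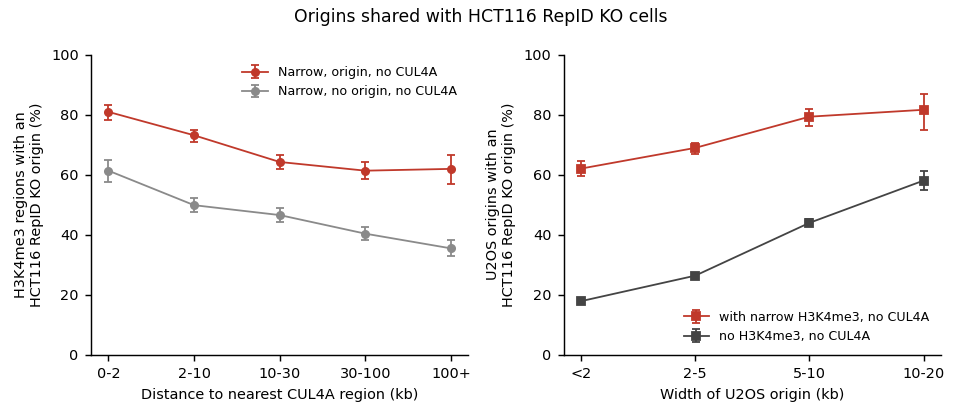
Left, percentage of narrow CUL4A-free H3K4me3 regions that met an HCT116 RepID KO origin, by distance to the nearest CUL4A region in kb, at U2OS origins (red) and outside them (grey). Right, percentage of U2OS origins without CUL4A that met an HCT116 RepID KO origin, by origin width in kb, with a narrow H3K4me3 region (red) or with no H3K4me3 region (dark grey); bars are Wilson 95% intervals. Red points on the left fall from 80.9 to 61.9%, and on the right they run from 62.0 to 81.6%, above the dark points in the 4 classes of width plotted.

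The 210 CUL4A-free regions at origins that met CDT2 were short. Their median width was 489 bp, against 1870 bp for those without CDT2, and 107 of them (51.0%) were under 500 bp. Their median fold was 5.08, against 6.82. RepID KO origins met 110 of them (52.4%), which was 17.3 points lower than in regions without CDT2 (difference −17.3 points, −24.1 to −10.5). Among regions of 500 bp or more, 71.8% of those with CDT2 and 74.7% of those without met a RepID KO origin (−2.89 points, −12.3 to 4.99), so the difference was not detectable there. Under 500 bp it was −13.7 points (−22.4 to −3.80). The shortness of regions with CDT2 was not particular to this set. With CUL4A at origins, median widths were 549 bp with CDT2 and 1814 bp without, and median folds 4.86 and 6.43. Outside origins they were 439 and 1082 bp, and 4.52 and 5.79.

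H3K9me3 was more frequent at regions with CDT2 than at those without. Of the 210 regions with CDT2, 72 (34.3%) also met H3K9me3, against 4.87% of the regions without CDT2, a difference of 29.4 points (23.3 to 36.1). These 72 were 20.8% of the 346 regions with H3K9me3. They had a median width of 326 bp and a median fold of 4.56, and 47 of them were under 500 bp. With CUL4A present at origins, 65.4% of the regions with CDT2 also met H3K9me3, so the CUL4A-free regions were 31.1 points lower (difference −31.1 points, −37.7 to −24.0). H3K9me3 met 28.4% of all narrow regions at origins with CUL4A and 5.93% of all CUL4A-free regions at origins. The gap includes this difference and does not measure how closely CDT2 and H3K9me3 go together. Regions with H3K9me3 met RepID KO origins in 58.1%, and those without it in 69.7% (−11.6 points, −17.0 to −6.42). The regions with H3K9me3 were narrower, with median widths of 1418 against 1853 bp, and this difference was not matched for width.

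Few of the regions met SKP2 in both the WT and the KO cells. Of the 267 CUL4A-free regions at origins (4.58%) with SKP2 in either HCT116 line, 137 met it only in WT, 14 in both and the others only in RepID KO. Of all autosomal H3K4me3 regions, 4.37% met SKP2 of WT and 3.67% SKP2 of KO cells, and meeting either or both was not counted there. The 14 were 9.27% (5.60 to 15.0%) of the WT regions and 10.8% (6.52 to 17.3%) of the KO regions. In the narrow regions at origins with CUL4A, 24.4% of those with SKP2 in WT also had it in KO, so the CUL4A-free regions were lower by 15.1 points (difference −15.1 points, −20.8 to −8.28), and beside narrow regions outside origins the difference was −14.5 points (−22.5 to −6.34). SKP2 of KO cells met 2.23% of all CUL4A-free regions at origins, 7.05% of those with CUL4A and 1.74% of those outside origins. These differences were not adjusted for such unequal shares. With 1 sample each, a difference between the SKP2 lists cannot be told apart from a difference between the libraries.

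Regions with SKP2 in HCT116 WT met a RepID KO origin in 83.4%, 14.8 points (7.93 to 20) more than the regions without it. The difference was 9.86 points (2.40 to 14.8) among regions of 1000 bp or more. For SKP2 in RepID KO cells, the genotype of the origin list, the difference over all widths was 0.973 points (−7.47 to 8.28). CDT2 met 17 of the 151 regions with SKP2 in WT (11.3%) and 12 of the 130 with SKP2 in KO (9.23%), against 3.40 and 3.47% of the regions without. With CUL4A at the origin these shares were 53.1 and 50.1%, and the CUL4A-free regions were lower by 41.8 points (difference −41.8 points, −48.0 to −34.1) and 40.9 points (−40.9 points, −47.2 to −32.9). CDT2 met 25.7% of all narrow regions at origins with CUL4A and 3.60% of all CUL4A-free regions at origins. The gaps include this difference and do not measure how closely CDT2 and SKP2 go together.

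Taking all 5 lists, 3574 regions (61.3%) met a RepID KO origin and nothing else, against 53.6% of all autosomal H3K4me3 regions and 53.4% of the narrow regions at origins with CUL4A. None of the lists was met by 1552 (26.6%), near the 25.2% of all autosomal H3K4me3 regions, while the share was 4.89% with CUL4A and 46.3% outside origins. The regions with a RepID KO origin only had a median width of 2213 bp and a median fold of 7.52, whereas those with none had 967 bp and 5.25. CDT2, H3K9me3 and SKP2 of either line were met together by 10 regions (0.171%), with a median width of 281 bp. This share was not counted in the other sets, so nothing particular to these regions is read from it.

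The position of these lists around the regions was followed in bins of 200 bp to 10 kb on each side of the centre. RepID KO origins covered 59.0% of the bases at the centre and 20.9% in the outer 1 kb, a ratio of 2.83. CDT2 covered 2.26% at the centre and 1.08% in the outer 1 kb (ratio 2.09), and H3K9me3 covered 2.10 and 1.22% (ratio 1.72). Coverage was therefore higher at the centre for each of these lists, at low levels for CDT2 and H3K9me3. Narrow regions outside origins, of which some have CUL4A, had ratios of 2.91 for RepID KO origins, 3.97 for CDT2, 2.73 for H3K9me3 and 3.84 for SKP2 in HCT116 WT. With CUL4A at the origin, the CDT2 coverage was 17.8% at the centre and 1.61% outside (ratio 11.0), and that of H3K9me3 was 14.9 and 1.61% (ratio 9.27). SKP2 in HCT116 WT covered 0.670% at the centre of the CUL4A-free regions and 0.298% outside (ratio 2.25), against 3.60 and 0.466% (ratio 7.73) with CUL4A. CUL4A itself was at 0 at the centre, as the choice requires, and at 12.2% in the outer 1 kb.

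**Figure D4:**
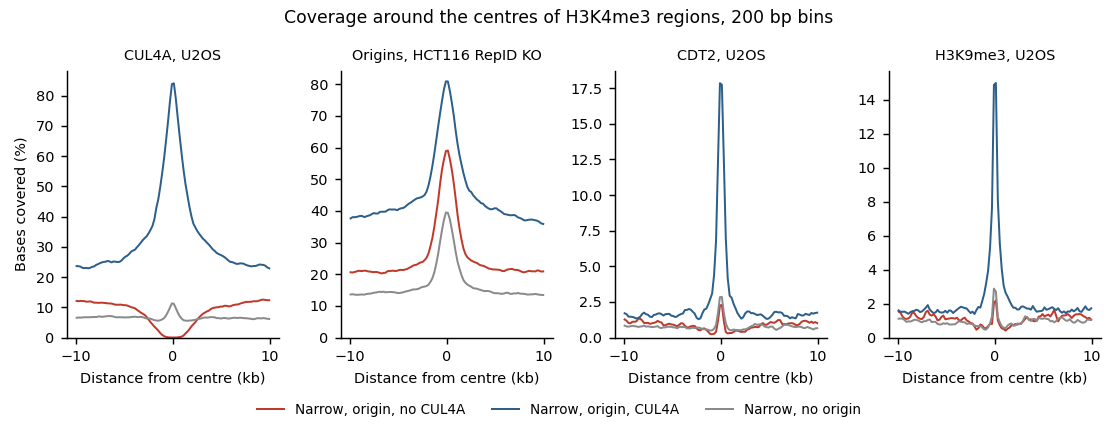
Percentage of bases covered by CUL4A, HCT116 RepID KO origins, CDT2 and H3K9me3 regions in 200 bp bins against the distance from the centre of the H3K4me3 region in kb, for narrow regions at origins without CUL4A (red), with CUL4A (blue) and narrow regions outside origins (grey, including those with CUL4A); each panel has its own vertical axis. Red lines reach 59.0% for RepID KO origins, 2.26% for CDT2 and 2.10% for H3K9me3 at the centre, and CUL4A coverage rises away from 0 to 12.2%.

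Another H3K4me3 region lay under 2 kb from 1540 of the narrow CUL4A-free regions at origins (26.4%, 25.3 to 27.5%), and for 224 regions the neighbour was a broad one. The share was 27.9% for narrow regions at origins with CUL4A, 26.2% for those outside origins and 20.4% for broad regions. Among the CUL4A-free regions at origins it fell with width, from 39.1% of the regions of 200 to under 500 bp to 15.6% of those of 3000 to under 4000 bp. Short regions were therefore more often close to another H3K4me3 call, from which they are not independent. RepID KO origins met 70.4% of the regions with such a neighbour and 68.6% of the others (difference 1.82 points, −0.881 to 4.45), and H3K9me3 met 7.27 and 5.45% (1.82 points, 0.431 to 3.37).

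Across chromosomes, the regions made up between 12.4% (chromosome 13) and 30.6% (chromosome 3) of the H3K4me3 regions. Among narrow regions at origins, the share without CUL4A was highest on chromosome 5 (62.5%) and chromosome 3 (61.5%), and lowest on chromosome 22 (33.4%) and chromosome 19 (39.3%). The absence of CUL4A was selected on, so these are a description. The share of the CUL4A-free regions that met a RepID KO origin ran from 58.8% (52.9 to 64.4%) on chromosome 6 to 76.7% (72.0 to 80.8%) on chromosome 19.

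**Figure D5:**
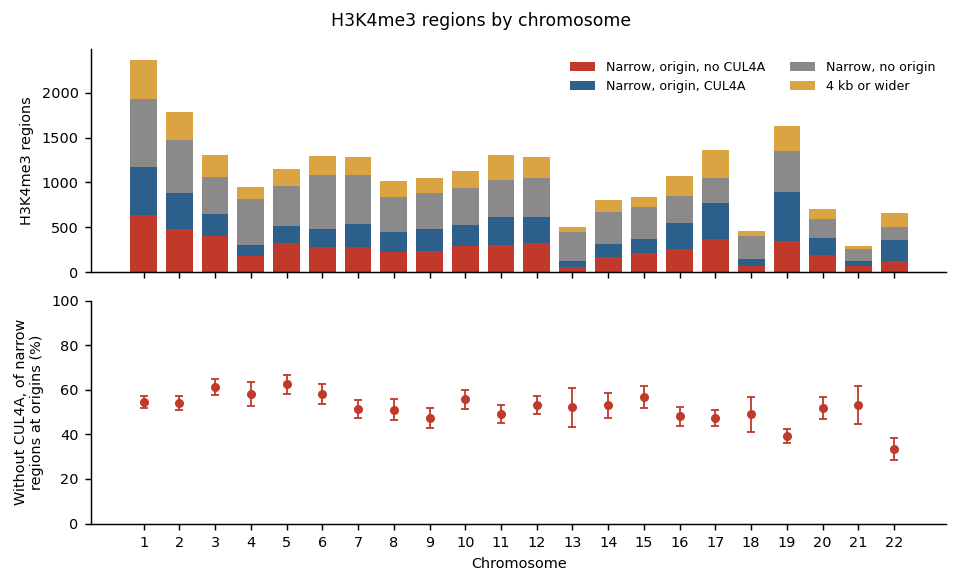
Top, number of H3K4me3 regions on each autosome in the 4 sets (stacked bars). Bottom, percentage of the narrow regions at origins that shared no base with CUL4A, with Wilson 95% intervals; the points run from 33.4% on chromosome 22 to 62.5% on chromosome 5.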

How the data were processed

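The authors called enriched regions from ChIP-Seq and nascent strand reads in 8 of 11 samples, with 1 sample per condition. The submitters' processing notes name MACS, SICER and hg19. The methods give SICER windows of 200 bp with gaps of 600 bp, and false discovery rates of 0.01 for origins and 1e-05 for CUL4A. Lack of a CUL4A region therefore means lack of a call at this stricter limit. For CDT2 and SKP2 the methods name the broad peak program of MACS. The deposited origin, CUL4A, CDT2 and SKP2 lists carry a score whose scale is not stated, used only to rank regions within a list. The deposited H3K4me3 and H3K9me3 lists carry the authors' fold enrichment over control, a ratio, and −log10 p and −log10 q in the form of MACS broad peaks, although the methods name SICER for histone marks.

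Overlaps were computed in Python 3.11.15 with NumPy 2.4.6 and SciPy 1.17.1, and figures drawn with matplotlib 3.10.9. Regions with 1 shared bp or more were counted, and the counting was tested on simulated data. Regions on X and Y were left out. The members, gene lists and comparisons were chosen with earlier results of these data known. Named regions were the 2 with the highest fold enrichment among those meeting no other list, CDT2, H3K9me3, RepID KO origins or SKP2, leaving out chromosome 8, and the regions nearest to each limit. The region farthest from CUL4A was named after its value had been seen. The gene and sequence tables at hand are on GRCh38, so gene lists, gene starts and sequence features were not analysed here. Alternatives were an overlap of 50% of the region, 1 kb around its centre, a −log10 q of at least 2, the stronger 50% of each list, 2 kb from CUL4A, an origin over the centre, and 3 width ranges. The removal of regions with CUL4A from the set outside origins, and the comparisons of origins by width, were added after seeing the data.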

Additional observations from a re-analysis of the deposited data

How the results depend on the processing

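No paired analysis was possible because each condition had 1 sample. All 45 recomputed differences from narrow regions with CUL4A, and all 6 of the origin comparison, kept their direction and an interval without 0, as did the RepID KO origin difference from regions outside origins under its 10 alternatives. Of the 50 recomputed differences from regions outside origins, 29 kept their sign and whether the interval included 0. The sign changed in 12, for some of which both intervals included 0. With the sign kept, 5 came to include 0 and 4 came to leave it out, and the cause was not tested. With 50% of the region covered, a rule that wider regions meet less easily with such short lists, H3K9me3 was −0.713 points, SKP2 WT −0.546 and SKP2 KO −0.111. With 1 kb around the centre, CDT2 was −0.738, SKP2 WT 0.103 and SKP2 KO 0.189. With the stronger 50% of each list, CDT2 was −1.03, H3K9me3 −0.836, SKP2 WT −0.0959 and SKP2 KO 0.157. H3K9me3 was 0.0813 at 2 kb or more from CUL4A and 0.197 with an origin over the centre. Under 1000 bp, CDT2 was 0.820, H3K9me3 0.543, SKP2 WT −0.237 and SKP2 KO 0.281. H3K9me3 was 0.214 at 1000 to under 2000 bp and 0.0992 at 2000 to under 4000 bp, where SKP2 KO was 0.399. Without the outside regions with CUL4A, CDT2 was 2.21 and H3K9me3 2.56. Alternatives on gene starts were not run, since no annotation of hg19 was used. The unknown read depth limits every absence of a region from a list.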

Other observations

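Chromosome X held 910 H3K4me3 regions, of which 79 met the same criteria of width, origin and absence of CUL4A. They were in no comparison above.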
